A study of Drosophila melanogaster with 9 samples.

Results

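Larvae of the tuSz1 strain of Drosophila melanogaster were compared with larvae of the hopTum strain, by whole-larva RNA sequencing and across all genes. The comparison uses 6 of the 9 libraries of the study, 3 of tuSz1 and 3 of hopTum, and the 3 libraries of w1118 are given beside them as the control strain. tuSz1 larvae have lost self-tolerance, and their blood cells encapsulate parts of their own fat body. As background, the strain is known to combine an activated form of the JAK kinase Hopscotch (gene hop) with loss of GCS1, an enzyme that trims sugar chains on new proteins. hopTum larvae carry a gain-of-function allele of hop and form blood cell tumours, and w1118 is a white-eyed laboratory strain. Larvae of every genotype were grown at 28 °C, and each library was made from RNA of 20 pooled whole larvae, labelled as a biological replicate. The title of the study names the loss of self-tolerance and activity of the IMD pathway as its subject. The labels give no larval stage, sex or background strain. The strains may differ at many loci, so a difference between tuSz1 and hopTum cannot be credited to 1 gene.

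JAK/STAT signalling starts when an Unpaired cytokine binds the receptor Domeless, which activates the kinase Hopscotch and then the transcription factor Stat92E. In fly larvae an overactive pathway makes blood cells divide and turn into lamellocytes, large flat cells that wrap objects too big to be engulfed and seal them with melanin. The antimicrobial peptide genes of the fat body answer mainly to the other immune pathways, IMD and Toll, which respond to different kinds of microbial wall.

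Depth was 12041845 to 14517286 counts per library in tuSz1, 9552828 to 12180558 in hopTum and 10387052 to 10973053 in w1118. Values are given as counts-per-million (CPM) on library sizes adjusted by the trimmed mean of M-values (TMM). On these sizes the CPM of all genes summed to 1143714, 1185471 and 1728041 in tuSz1. The sums were 837925 to 1145847 in hopTum and 730964 to 800633 in w1118, so a summed CPM is not a share of all counts. On this scale 3 counts, used as the floor for a gene at or near 0, were worth 0.2 to 0.357 CPM by library, and floors cover counting error only. The authors counted reads per transcript, and 32.1% of the 7320 genes with several listed transcripts were at 0 in all 9 libraries, against 11.5% of the 9668 genes with 1 transcript. A gene at 0 is therefore given as listed at 0. Genes with several transcripts held 5.99% of counts and those with 1 transcript 93.6%. A value above 0 of a gene with several transcripts may therefore cover only part of its reads. Zasp52, br, Mmp1, mew and PGRP-LB are among such genes below, and whether their values stand for all transcripts was not tested. In RNA from whole larvae, fewer cells of a type and less RNA per cell cannot be told apart.

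Some libraries stood apart from their replicates. In tuSz1 replicate 3 the summed level of 11 salivary glue genes was 5614 CPM, against 59954 and 61787 CPM in replicates 1 and 2. Most of that sum was ng2 and ng3, of an early set of gland genes, at 1140 and 3844 CPM. The glue protein genes Sgs1 and Sgs3, which are made late in the last larval stage, were far below their levels in replicates 1 and 2. The Eig71E genes, also of the late salivary gland, summed to 3.81 CPM in that library and to 5909 and 4655 CPM in the other tuSz1 libraries. Its cuticle protein genes summed to 25960 CPM, against 5195 and 10765 CPM in tuSz1 replicates 1 and 2. hopTum replicate 2 had 8022 CPM of cuticle genes, against 1820 and 1822 CPM in replicates 1 and 3, and 81693 CPM of larval serum and fat body protein genes, against 40495 and 23954 CPM. Counts and calls that change without 1 of these libraries are given beside the result. hopTum replicate 3 also stood apart in some lists. Its muscle genes summed to 4006 CPM, against 20197 and 32298 CPM in replicates 1 and 2. Its lysozyme genes summed to 2536 CPM, against 8955 and 11153 CPM. What these libraries contribute to other results was not tested.

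**Figure D1:**
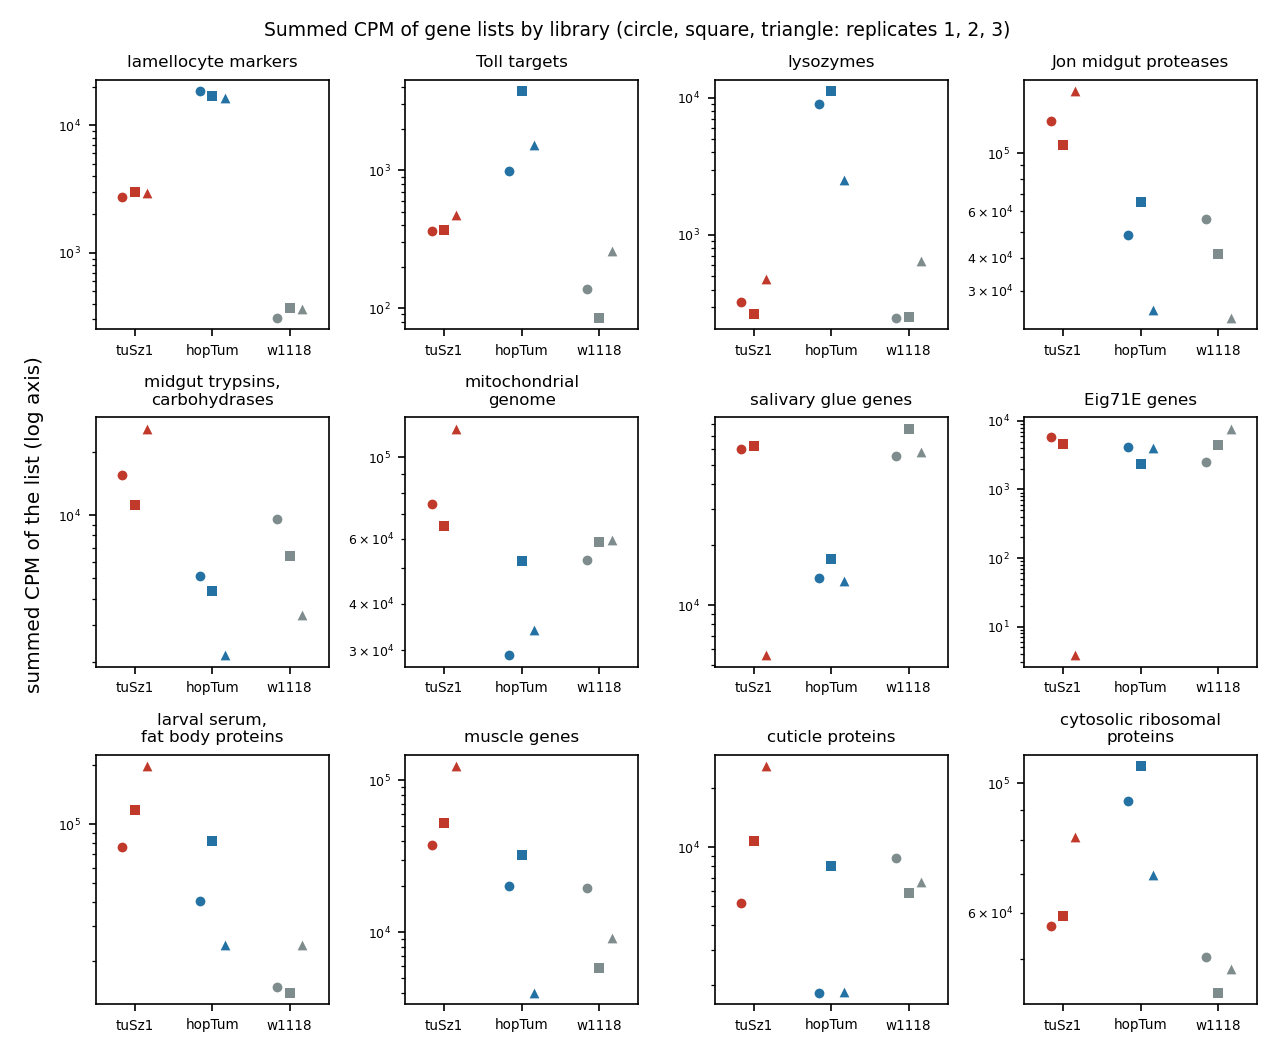
Summed CPM (log axis) of 12 gene lists in each library, with tuSz1 on the left, then hopTum, then w1118; each point is 1 library. Lamellocyte markers form 3 separate levels, with tuSz1 between hopTum and w1118, and tuSz1 replicate 3 lies far below its replicates in glue and Eig71E genes.

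Of 9106 genes tested with edgeR's quasi-likelihood test, 880 differed between tuSz1 and hopTum at an adjusted p under 0.05, which is 9.66% of those tested. Of these, 503 were higher in tuSz1 (5.52%) and 377 were lower (4.14%). The 3 tuSz1 values lay wholly above or below the 3 hopTum values for 2653 genes, or 29.1%, with 1244 higher (13.7%) and 1409 lower (15.5%). These percentages are the background for every list below, and the median log2 fold change of all tested genes was 0.03. With total-count scaling that median was -0.39 and 27.6% of calls were higher, against 57.2% with TMM, so differences in either direction are relative to the scaling used. The number called was 507 without hopTum replicate 1, 559 without tuSz1 replicate 2 and 565 without hopTum replicate 3. It was 639 without tuSz1 replicate 3 and 842 without hopTum replicate 2, of which 548 and 659 were among the 880.

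**Figure D2:**
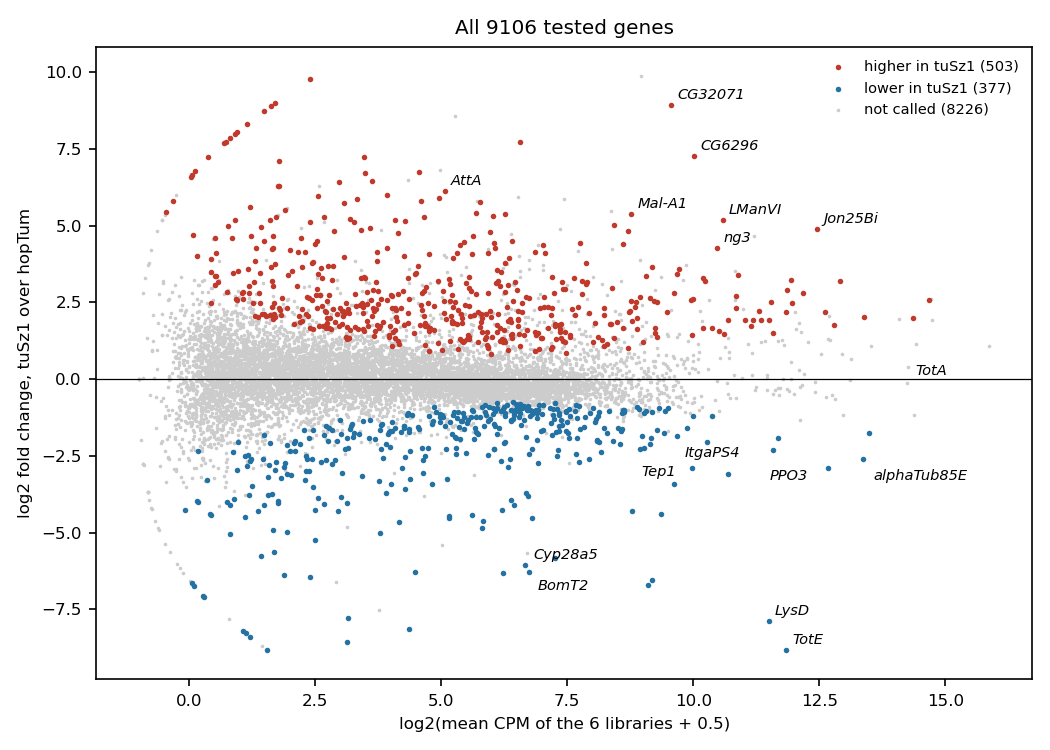
Log2 fold change of tuSz1 over hopTum for each of the 9106 tested genes against log2 of its mean CPM in the 6 libraries plus 0.5; red points were called higher in tuSz1 (503), blue points lower (377), grey points were not called. TotE and LysD are the most lowered of the abundant genes, CG32071 and CG6296 the most raised, and TotA lies on the zero line.

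The genes that mark the genotypes were examined first. hop had 172, 168 and 192 CPM in tuSz1, against 479, 178 and 341 CPM in hopTum and 139, 158 and 135 CPM in w1118. The difference between tuSz1 and hopTum missed the threshold (log2 fold change -0.91 with SE 0.32, edgeR adjusted p = 0.105), and hopTum replicate 2 lay within the tuSz1 range. The eye pigment transporter gene w, which is mutated in w1118, was at 91.2, 75 and 136 CPM in tuSz1, against 136, 219 and 165 CPM in hopTum and 1.76, 1.87 and 3.18 CPM in w1118. GCS1 was listed at 0 in all 9 libraries, so the second lesion attributed to tuSz1 could not be checked. An RNA level does not show an altered kinase, and no check of either hop allele was possible.

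The summed level of the lamellocyte markers was far lower in tuSz1 than in hopTum, and yet above w1118. Over 12 listed genes the sum was 2715, 2975 and 2934 CPM in tuSz1, against 18422, 16902 and 16382 CPM in hopTum and 308, 372 and 365 CPM in w1118. The 3 genotypes did not overlap in this sum, most of which is PPO3 and ItgaPS4 in tuSz1 and hopTum. Of 10 markers tested, 4 were called, all lower in tuSz1, and the median log2 fold change was -1.28. atilla and betaTub60D, a pair of widely used lamellocyte markers, were listed at 0 in all 9 libraries.

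PPO3, the prophenoloxidase made by lamellocytes (2R:23064769-23067183, dm6), had 1570, 1394 and 1687 CPM in tuSz1, against 12357, 12436 and 9693 CPM in hopTum and 8.01, 3.46 and 4.34 CPM in w1118. Its log2 fold change was -2.89 (SE 0.39, edgeR adjusted p = 9.71e-04). The lamellocyte integrin subunit gene ItgaPS4 (2R:15258761-15262873) had 939, 1283 and 819 CPM in tuSz1, against 5123, 4265 and 5831 CPM in hopTum, with w1118 at 3.16 to 9.26 CPM. It fell by 2.32 on the log2 scale (SE 0.41, adjusted p = 0.0047 with edgeR). For both genes the tuSz1 libraries were tightly grouped, well under hopTum and well above the control. CG15347 was within the floor in tuSz1, at 0.095, 0.262 and 0.119 CPM, against 4.59, 6.77 and 4.21 CPM in hopTum, so it was at least 17.2-fold lower (adjusted p = 0.00289 with edgeR). The sugar transporter gene CG1208 had the weakest of the 4 calls (log2 fold change -2.13, adjusted p = 0.0482 with edgeR). It missed the threshold without any of the 6 tuSz1 or hopTum libraries or w1118 replicate 3, with an adjusted p of up to 0.138. Of the markers not called, the beta integrin gene mys was at 7.03, 9.35 and 11 CPM in tuSz1 and 23.6, 11.7 and 18.9 CPM in hopTum, and shot, a cytoskeletal linker, was at 142, 217 and 294 CPM in tuSz1 and 838, 95.8 and 741 CPM in hopTum.

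Among markers of the other blood cell types 1 call was made. Of 5 plasmatocyte markers tested, the scavenger receptor gene Sr-CI alone was called. It had 0.095, 0.175 and 0 CPM in tuSz1, against 12.3, 7.81 and 8.07 CPM in hopTum, at least 31.2-fold lower (adjusted p = 9.08e-04 with edgeR), and it was listed at 0 in the 3 w1118 libraries. The phagocytosis receptor NimC1 had 11.1, 16.9 and 16.1 CPM in tuSz1 and 15.7, 22.7 and 21.7 CPM in hopTum, and eater had 33.4, 53.1 and 11.2 CPM in tuSz1 and 33.4, 62.5 and 57.2 CPM in hopTum. The values of both genes overlapped. Hml and He, which define most larval plasmatocytes in reporter studies, were listed at 0 in every library. Of 5 crystal cell markers tested with edgeR, 0 were called, 0 had an unadjusted p under 0.05, and DESeq2 also called 0. The crystal cell prophenoloxidase PPO1 had 58.4, 79.6 and 106 CPM in tuSz1 and 109, 194 and 63.7 CPM in hopTum.

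**Figure D3:**
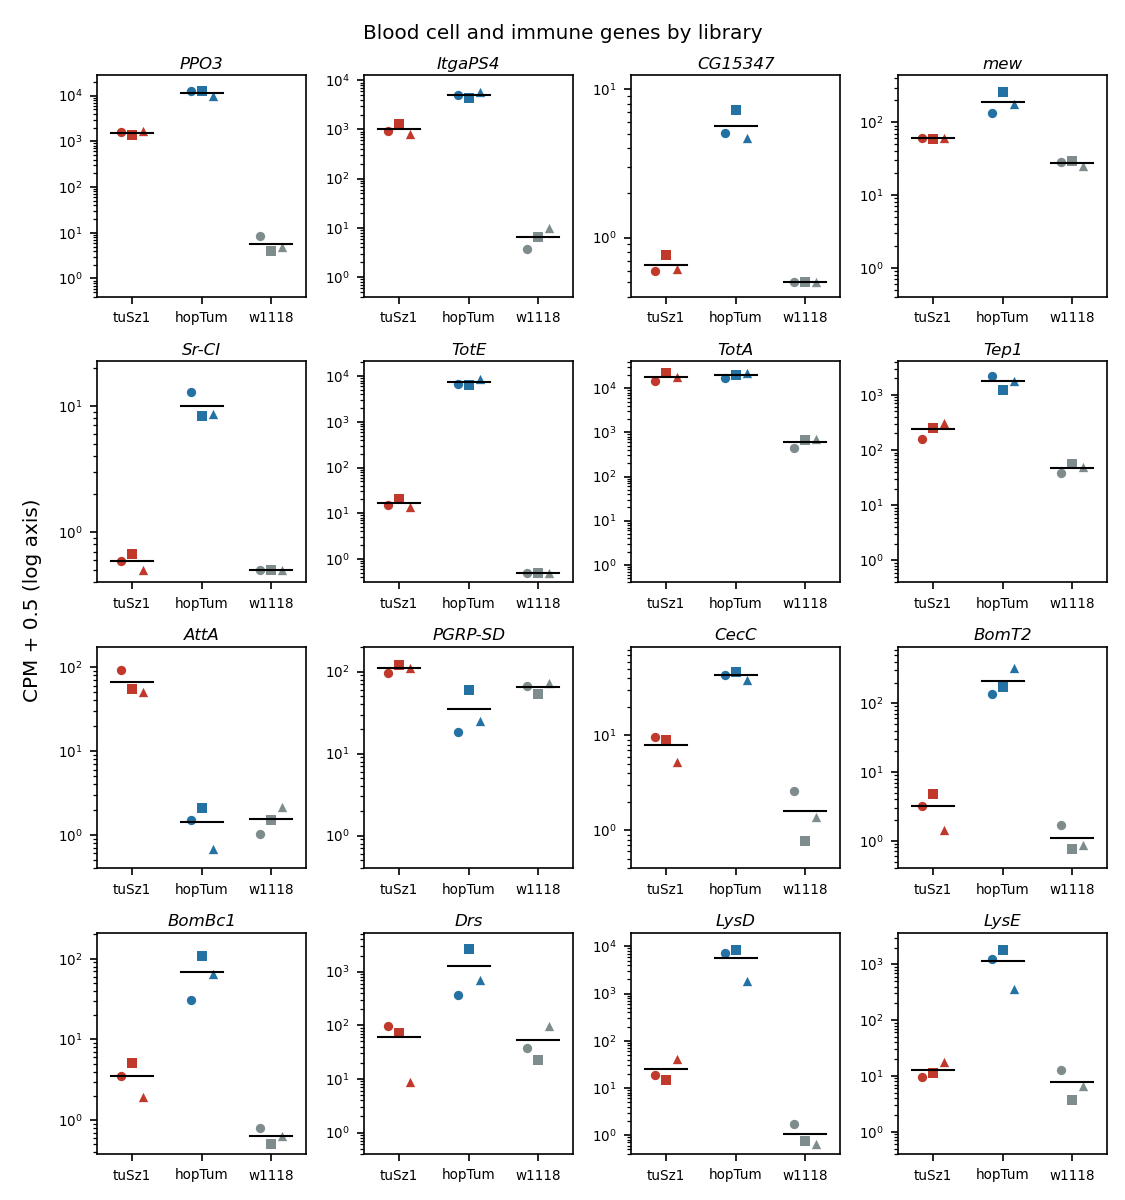
CPM plus 0.5 (log axes) of 16 blood cell, immune and lysozyme genes in each library, with tuSz1 left, hopTum next and w1118 right. Circle, square and triangle are replicates 1, 2 and 3, and bars are means. PPO3, ItgaPS4 and TotE separate the 3 genotypes or set hopTum apart, TotA is level between tuSz1 and hopTum, and AttA is high in the 3 tuSz1 libraries.

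The known targets of JAK/STAT signalling split by gene. The Turandot genes encode small secreted stress proteins, and TotE (2L:19912938-19913516) had 14.6, 20.2 and 12.9 CPM in tuSz1, against 6847, 6258 and 8753 CPM in hopTum. It was listed at 0 in w1118. This was the most negative fold change among the named genes (log2 fold change -8.84 with SE 0.47, edgeR adjusted p = 1.79e-05). TotA (3R:20871036-20871700), in contrast, had 14900, 22139 and 18270 CPM in tuSz1, 17283, 20157 and 22675 CPM in hopTum and 450 to 700 CPM in w1118. Its tuSz1 and hopTum values overlapped (log2 fold change -0.12 with SE 0.34, edgeR adjusted p = 0.867). TotC was similar in this, at 3550, 6802 and 4179 CPM in tuSz1 and 4423, 3432 and 3868 CPM in hopTum. The Turandot genes are close relatives, and reads that fit several of them could have been assigned unevenly.

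Tep1, a thioester protein gene induced by JAK signalling, had 156, 247 and 314 CPM in tuSz1, against 2237, 1219 and 1818 CPM in hopTum and 38.4, 55.8 and 48.8 CPM in w1118. It fell by 2.88 on the log2 scale (SE 0.37, adjusted p = 6.87e-04 with edgeR), without overlap between the genotypes. Tep2 was also called (log2 fold change -1.23, adjusted p = 0.0427 with edgeR), but missed the threshold without any tuSz1 library, hopTum replicate 1 or 3, or w1118 replicate 2 or 3, with an adjusted p of up to 0.137. In all, 3 of 9 tested targets were called, each lower in tuSz1, with a median log2 fold change of -0.12, which was 0.02 without tuSz1 replicate 1. Socs36E, TotM and Tep4 were listed at 0 throughout.

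Among 8 tested components of the pathway, the phosphatase gene Ptp61F, a brake on JAK signalling, was the single call. It had 2.28, 1.92 and 0.833 CPM in tuSz1 and 16.5, 3.57 and 14.6 CPM in hopTum (log2 fold change -2.76, adjusted p = 0.036 with edgeR), and missed the threshold without any tuSz1 library or hopTum replicate 1 or 3 (adjusted p of up to 0.119). Without hopTum replicate 2, 2 components were called lower. The cytokine gene upd3 had 17.7, 11.2 and 16 CPM in tuSz1, against 46, 16.2 and 53.7 CPM in hopTum, and was not called. Stat92E had 43.5, 40.5 and 37.1 CPM in tuSz1 and 31.2, 49.3 and 38 CPM in hopTum, with overlapping values. The receptor gene dome was at 512, 348 and 322 CPM in tuSz1 and 921, 314 and 619 CPM in hopTum. For hop, upd3 and dome alike, hopTum replicate 2 was the hopTum library nearest to tuSz1.

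Genes of the IMD response divided in direction. Of 14 targets tested, 3 were higher in tuSz1 and 1 was lower, with a median log2 fold change of 1.05. Summed CPM of the 17 listed genes was 320, 390 and 282 in tuSz1, against 214, 223 and 241 in hopTum. The sums in w1118, 142, 107 and 307 CPM, overlapped those of both strains. The attacin gene AttA, which encodes an antibacterial peptide (2R:14747362-14748215), had 90.6, 54 and 50.5 CPM in tuSz1, against 1.02, 1.6 and 0.175 CPM in hopTum and 0.514, 0.999 and 1.66 CPM in w1118. It rose by 6.12 on the log2 scale (SE 0.66, adjusted p = 2.77e-04 with edgeR), and every tuSz1 library was far above all the others. Its near-identical neighbour AttB was listed at 0 in all libraries, so AttA may hold the reads of both.

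PGRP-LB, an enzyme that degrades the bacterial wall fragments that trigger IMD, had 25.4, 24.9 and 46.3 CPM in tuSz1, against 8.37, 5.74 and 7.63 CPM in hopTum (log2 fold change 2.15 with SE 0.46, edgeR adjusted p = 0.0136). In w1118 it had 13.4, 8.66 and 3.98 CPM. Without tuSz1 replicate 3 and hopTum replicate 2 together the adjusted p was 0.0671. The recognition protein gene PGRP-SD had 96.1, 122 and 110 CPM in tuSz1, against 18, 59.6 and 24.8 CPM in hopTum (log2 fold change 1.68 with SE 0.38, edgeR adjusted p = 0.0181). PGRP-SD had 66.9, 53.5 and 73.1 CPM in w1118, with a mean between those of the strains. Its edgeR adjusted p was 0.0514 without tuSz1 replicate 2, 0.0712 without hopTum replicate 1 and 0.0682 without hopTum replicate 3. The cecropin gene CecC went the other way, with 9.02, 8.47 and 4.76 CPM in tuSz1, against 43.2, 46.2 and 38.2 CPM in hopTum and 2.13, 0.266 and 0.868 CPM in w1118. It fell by 2.51 on the log2 scale (SE 0.53, adjusted p = 0.0126 with edgeR). Neither AttD nor DptB passed. AttD had 14.6, 22.5 and 19 CPM in tuSz1 and 1.63, 3.1 and 0 CPM in hopTum, while DptB had 8.55, 19.9 and 1.79 CPM in tuSz1 and 99.6, 43.2 and 125 CPM in hopTum. The numbers of IMD targets called higher and lower were 2 and 2 without tuSz1 replicate 2, 4 and 2 without hopTum replicate 2 or w1118 replicate 3, and 3 and 2 without w1118 replicate 2. Among 6 tested IMD components, the adaptor gene Fadd alone was called (25.7, 22.8 and 27.6 CPM in tuSz1, 49.7, 62.6 and 48.9 CPM in hopTum). Fadd missed the threshold without tuSz1 replicate 1 or 2 or hopTum replicate 1 or 2 (edgeR adjusted p of up to 0.104).

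Of 14 Toll targets tested, 4 were called, all lower in tuSz1, 10 did not pass, and 7 lay wholly lower. The median log2 fold change was -2.64. Summed CPM of the 20 listed genes was 362, 369 and 475 in tuSz1, against 993, 3729 and 1524 in hopTum and 84.9 to 260 in w1118. Bomanins are short secreted peptides that carry much of the Toll defence. BomT2 had 2.66, 4.37 and 0.952 CPM in tuSz1, against 134, 170 and 326 CPM in hopTum, a fall of 6.27 on the log2 scale (SE 0.66, adjusted p = 3.64e-04 with edgeR). BomBc1 had 3.04, 4.54 and 1.43 CPM in tuSz1, against 30.4, 107 and 63.9 CPM in hopTum (log2 fold change -4.46 with SE 0.64, edgeR adjusted p = 0.00141). Both genes were near the floor in w1118, with at most 1.18 CPM.

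The Toll calls beyond these were less stable. BomS5 had 0.38, 0.524 and 1.19 CPM in tuSz1 and 2.55, 19.6 and 8.16 CPM in hopTum (edgeR adjusted p = 0.0151), and its adjusted p was 0.0566, 0.0556 and 0.0558 without tuSz1 replicate 1, tuSz1 replicate 2 and hopTum replicate 2. Drs, the antifungal peptide drosomycin, had 97.4, 71.5 and 8.45 CPM in tuSz1, against 371, 2695 and 699 CPM in hopTum (log2 fold change -4.41 with SE 1.14, edgeR adjusted p = 0.0474). When the 9 libraries were left out in turn it kept the call only without w1118 replicate 3, and its adjusted p was up to 0.16 without 1 of the other 8 libraries. Without tuSz1 replicate 1 or 2, 2 Toll targets were called lower. Without hopTum replicate 2, 2 were lower and 1 was higher, with a median of -1.61. Among 10 Toll components tested, the protease gene modSP was called (86.4, 81 and 109 CPM in tuSz1, 197, 231 and 186 CPM in hopTum), and missed the threshold without tuSz1 replicate 1 or 2 or hopTum replicate 1 (edgeR adjusted p of up to 0.0887).

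Of 5 lysozyme genes tested, 2 were called, both lower in tuSz1, and the median log2 fold change was -2.72. LysD (3L:1210717-1211196) had 18.7, 13.9 and 40 CPM in tuSz1, against 7237, 8161 and 1854 CPM in hopTum and 0.145 to 1.25 CPM in w1118. Its log2 fold change was -7.89 (SE 0.91, edgeR adjusted p = 5.30e-04). LysE (3L:1212827-1213406) had 9.02, 10.7 and 17.4 CPM in tuSz1, against 1250, 1816 and 358 CPM in hopTum (log2 fold change -6.53 with SE 0.74, edgeR adjusted p = 5.30e-04). The lowest hopTum library was replicate 3 for both, and still far above every tuSz1 library. These neighbouring genes are nearly identical, so their reads may have been shared between them, and they are not 2 independent observations. LysX, at 54.6, 69.2 and 21.5 CPM in tuSz1 and 192, 573 and 195 CPM in hopTum, just missed the threshold (adjusted p = 0.0502 with edgeR). Of 10 melanization genes tested, PPO3 was lower and speck was higher. speck had 11.7, 12.2 and 28 CPM in tuSz1 and 3.27, 3.1 and 2.98 CPM in hopTum (edgeR adjusted p = 0.0206), and missed the threshold without tuSz1 replicate 3 or any hopTum library (up to 0.0669).

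Of 11 integrin adhesion genes tested, 4 were called, all lower in tuSz1, and 3 had log2 fold changes above 0 without passing. The median was -0.68. Besides ItgaPS4, which also stands in the lamellocyte list, these were mew, Fit1 and Ilk. The alpha integrin subunit gene mew had 59.6, 58.4 and 59.9 CPM in tuSz1, against 133, 262 and 176 CPM in hopTum and 27.8, 29.2 and 24.2 CPM in w1118 (log2 fold change -1.68 with SE 0.27, edgeR adjusted p = 0.00279). Fit1, a fermitin that activates integrins, had 93.2, 84.1 and 82.5 CPM in tuSz1, against 140, 306 and 198 CPM in hopTum (adjusted p = 0.0134 with edgeR, and 0.05 without tuSz1 replicate 2). Integrin-linked kinase, Ilk, had 266, 335 and 382 CPM in tuSz1 and 667, 628 and 566 CPM in hopTum (adjusted p = 0.0433 with edgeR). It missed the threshold without any tuSz1 or hopTum library or w1118 replicate 2, with an adjusted p of up to 0.168. Without tuSz1 replicate 2, 2 integrin genes were called. All 3 genotypes kept the same order for mew, Fit1 and Ilk, with w1118 lowest.

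The matrix protease gene Mmp1 was the single call among 7 JNK pathway genes and also among 10 matrix genes. It had 6.17, 5.85 and 4.64 CPM in tuSz1 and 40.6, 4.61 and 51.3 CPM in hopTum, so the values overlapped, and its edgeR adjusted p of 0.0382 was above 0.05 without any tuSz1 library, hopTum replicate 1 or 3, or w1118 replicate 1 or 2 (up to 0.12). Without hopTum replicate 2, 2 matrix genes were called lower. Genes of N-glycan synthesis and trimming, the process to which GCS1 belongs, had a median log2 fold change of 0.06 over 21 tested. The transferase gene Mgat3 was the single call, with 14.5, 10.7 and 19.5 CPM in tuSz1 and 35.2, 50.5 and 36.4 CPM in hopTum (adjusted p = 0.0174 with edgeR, and 0.0602 and 0.0754 without tuSz1 replicates 1 and 2). Of 9 genes of protein folding in the endoplasmic reticulum, edgeR and DESeq2 both called 0, and 2 had an unadjusted p under 0.05 with edgeR, both higher in tuSz1.

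Digestive enzyme genes of the midgut were among the calls. Of 21 trypsin and carbohydrase genes tested, 10 were called higher, against 5.52% of all genes, and for 17 the genotypes did not overlap. Their median log2 fold change was 2.14. Summed CPM was 15462, 11184 and 25857 in tuSz1, against 5134, 4355 and 2146 in hopTum and 9549, 6352 and 3339 in w1118. The count was 6 without tuSz1 replicate 3 and also without hopTum replicate 3.

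The maltase gene Mal-A1 (2R:8449664-8451904) had 971, 595 and 979 CPM in tuSz1, against 25.8, 29 and 6.67 CPM in hopTum and 545, 264 and 73.8 CPM in w1118. It rose by 5.37 on the log2 scale (SE 0.81, adjusted p = 0.00322 with edgeR). Mal-A8, a second maltase, had 338, 238 and 501 CPM in tuSz1, against 42.3, 45.8 and 21.3 CPM in hopTum and 142 to 233 CPM in w1118 (log2 fold change 3.30 with SE 0.40, edgeR adjusted p = 5.30e-04). In both maltases hopTum was the low strain, under tuSz1 and w1118 alike. Of the 10 called trypsin and carbohydrase genes, w1118 was nearer to hopTum in 6 and to tuSz1 in 4 on the log2 scale. The alpha-mannosidase gene LManIV had 23.4, 22.5 and 20.7 CPM in tuSz1, against 2.04, 0.188 and 0 CPM in hopTum (log2 fold change 4.92 with SE 1.04, edgeR adjusted p = 0.0149, and 0.0655 without tuSz1 replicate 3 and hopTum replicate 2). LManVI had 1676, 1674 and 5590 CPM in tuSz1, against 143, 99.4 and 3.42 CPM in hopTum. Its log2 fold change was 5.19 and its edgeR adjusted p was 0.0459, and it missed the threshold without any tuSz1 library, hopTum replicate 1 or 2, or w1118 replicate 1 or 2 (up to 0.137). The called trypsins ranged in log2 fold change from 1.33 for etaTry to 2.54 for thetaTry. Of these, etaTry, gammaTry, iotaTry and thetaTry missed the threshold without tuSz1 replicate 3 or hopTum replicate 3, etaTry and gammaTry also without hopTum replicate 1, iotaTry and thetaTry without hopTum replicate 2, and gammaTry without tuSz1 replicate 1 (edgeR adjusted p of up to 0.115). alphaTry, which kept its call, had 1896, 1455 and 1981 CPM in tuSz1, against 703, 454 and 507 CPM in hopTum (log2 fold change 1.68 with SE 0.32, edgeR adjusted p = 0.00801). Trypsin genes of this cluster are similar in sequence, and their reads may not be fully separated.

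The Jonah (Jon) genes, a family of midgut serine proteases, were examined next. Of 13 tested, 6 were called, all higher in tuSz1, with a median log2 fold change of 1.98. They summed to 132410, 107482 and 171596 CPM in tuSz1, against 49049, 65464 and 25376 CPM in hopTum. The sums in w1118, 56315, 41383 and 23640 CPM, overlapped those of hopTum. On the log2 scale w1118 was nearer to hopTum in 5 of the 6 called genes. Jon25Bi (2L:4954279-4955144) had 10251, 7438 and 14743 CPM in tuSz1, against 334, 636 and 115 CPM in hopTum and 4189, 2209 and 499 CPM in w1118. It rose by 4.90 on the log2 scale (SE 0.84, adjusted p = 0.00519 with edgeR). Jon25Biii had 13507, 11164 and 16932 CPM in tuSz1, against 1089, 2624 and 781 CPM in hopTum (log2 fold change 3.21 with SE 0.56, edgeR adjusted p = 0.00444). Jon65Aiii had 18278, 13621 and 19344 CPM in tuSz1, against 5383, 4006 and 3272 CPM in hopTum (log2 fold change 2.02 with SE 0.37, edgeR adjusted p = 0.00607). No library of either strain broke this separation. The other 3 called, Jon66Cii, Jon65Aiv and Jon99Fi, had edgeR adjusted p-values of 0.0674, 0.052 and 0.108 without hopTum replicate 1, and Jon65Aiv and Jon99Fi of 0.0569 and 0.0537 without hopTum replicate 3. Jon99Fi also missed without tuSz1 replicate 1 (0.051) or 3 (0.0566). The Jon count was thus 3 without hopTum replicate 1, and without hopTum replicate 3 it was 4 higher and 1 lower.

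**Figure D4:**
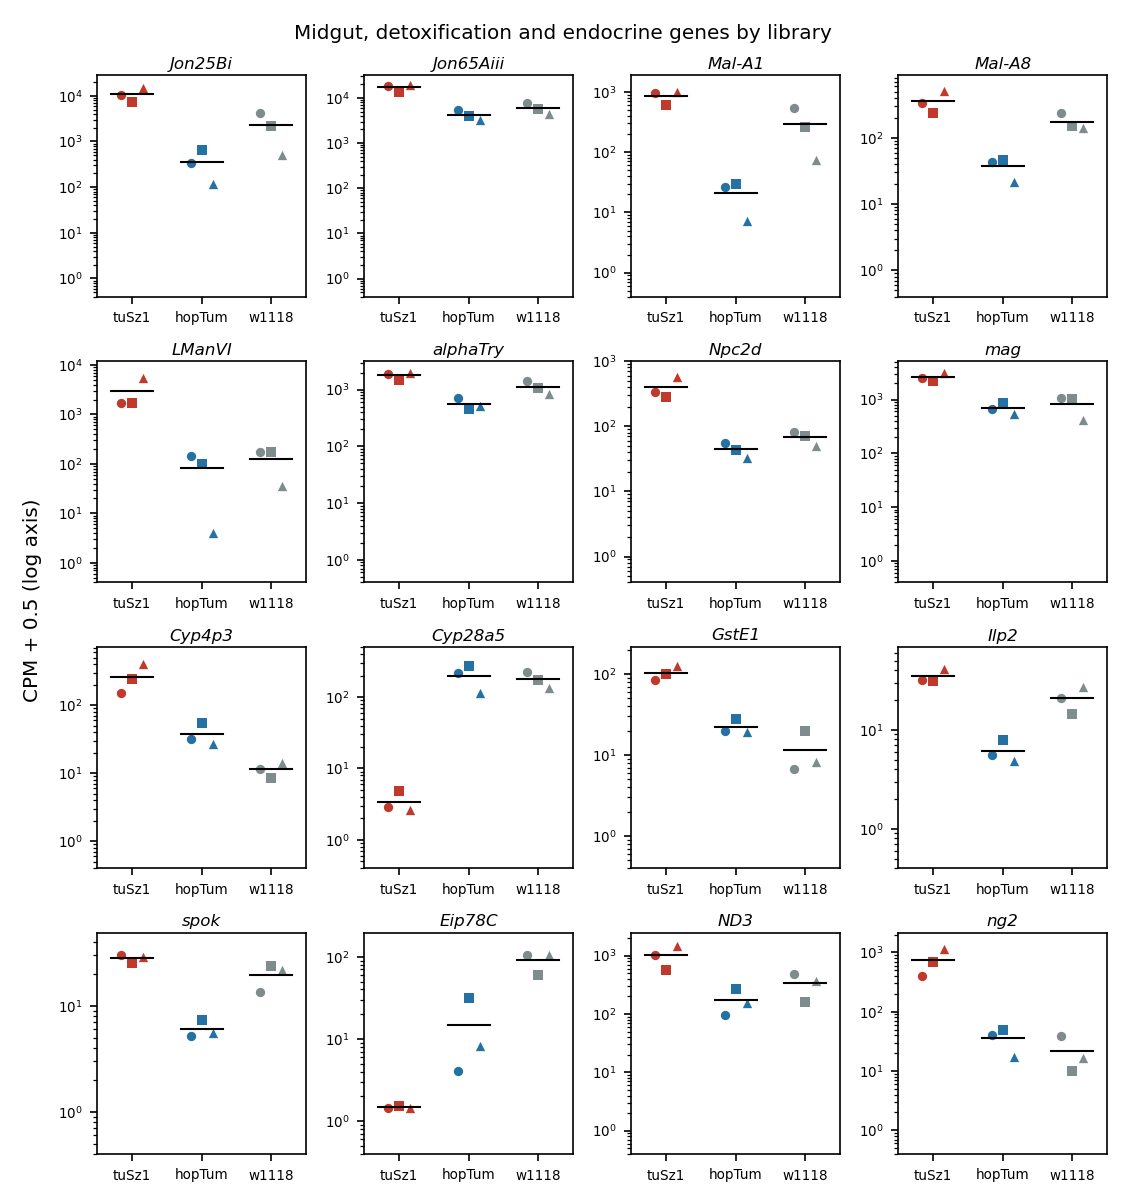
CPM plus 0.5 (log axes) of 16 genes of digestion, detoxification, hormones and other functions in each library, with tuSz1 left, hopTum next and w1118 right; circle, square and triangle are replicates 1, 2 and 3, and bars are means. The midgut enzyme genes shown have their lowest means in hopTum, but hopTum and w1118 values overlap in Jon25Bi, Jon65Aiii and LManVI. They also overlap in mag and Npc2d. Cyp28a5 is low in the 3 tuSz1 libraries alone, and Ilp2 and spok are lowest in hopTum.

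Of 18 tested genes in the list of lipid synthesis and storage, 5 were called, all higher in tuSz1, and the median log2 fold change was 1.28. The list also holds lipase and sterol-binding protein genes. Lip3, a lipase gene, had 28, 20.1 and 23.7 CPM in tuSz1, against 0.918, 2.92 and 1.14 CPM in hopTum and 1.4, 2.86 and 3.33 CPM in w1118. It rose by 3.84 on the log2 scale (SE 0.53, adjusted p = 0.00114 with edgeR). The sterol-binding protein gene Npc2d had 337, 277 and 580 CPM in tuSz1, against 55.6, 43.5 and 31.7 CPM in hopTum (log2 fold change 3.19 with SE 0.36, edgeR adjusted p = 3.68e-04). Its relative Npc2f had 446, 416 and 584 CPM in tuSz1, against 115, 147 and 77.8 CPM in hopTum (log2 fold change 2.09 with SE 0.29, edgeR adjusted p = 0.00128). For Lip3 and Npc2d both hopTum and w1118 were low. The gut lipase gene mag had 2544, 2169 and 3130 CPM in tuSz1, against 675, 852 and 544 CPM in hopTum (edgeR adjusted p = 0.0111, but 0.0547 and 0.05 without hopTum replicates 1 and 3). Desat1, which puts double bonds into fatty acids, had 9.21, 11.3 and 26.8 CPM in tuSz1 and 3.78, 1.98 and 3.33 CPM in hopTum (adjusted p = 0.0152 with edgeR, and 0.0823 without tuSz1 replicate 3 and hopTum replicate 2).

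Genes of detoxification changed in both directions. Of 64 cytochrome P450 genes tested, 19 were called higher and 7 lower, so 40.6% were called against 9.66% of all genes, with a median log2 fold change of 0.86. The counts were 12 higher and 5 lower without hopTum replicate 3, 19 and 4 without tuSz1 replicate 1, and 16 and 3 without tuSz1 replicate 2. The most raised were Cyp28d2, Cyp4p3 and Cyp4p2, with log2 fold changes of 2.89, 2.82 and 2.79. Cyp4p3 had 150, 239 and 396 CPM in tuSz1, against 31.4, 53.2 and 26.5 CPM in hopTum and 10.9, 7.99 and 13.5 CPM in w1118 (SE 0.40, adjusted p = 0.00137 with edgeR). Cyp28a5 (2L:13977302-13979569) stood at the other end, with 2.37, 4.28 and 2.14 CPM in tuSz1, against 215, 269 and 115 CPM in hopTum and 227, 176 and 135 CPM in w1118. It fell by 6.07 on the log2 scale (SE 0.45, adjusted p = 2.21e-05 with edgeR), and tuSz1 alone was low. Cyp4aa1 had 9.4, 13 and 21.1 CPM in tuSz1, against 310, 37 and 221 CPM in hopTum (edgeR adjusted p = 0.01, and 0.0553 without tuSz1 replicate 2). Cyp4e3 had 13.3, 9.78 and 18.8 CPM in tuSz1 and 90.2, 338 and 163 CPM in hopTum (edgeR adjusted p = 0.024), and missed the threshold without any tuSz1 library or hopTum replicate 3 (up to 0.107). Of the 19 raised P450 genes, w1118 was nearer to hopTum in 18, and it lay below both strains in 9.

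Glutathione transferases, which attach glutathione to foreign compounds, had 6 genes called higher and 2 lower of 24 tested, with a median log2 fold change of 0.75. GstE5 had 33, 46.6 and 111 CPM in tuSz1, against 7.65, 11.8 and 2.81 CPM in hopTum and 2.06 to 5.13 CPM in w1118 (log2 fold change 3.10 with SE 0.60, edgeR adjusted p = 0.00832). GstD4 had 9.5, 12.3 and 41.7 CPM in tuSz1 and 1.63, 4.42 and 2.28 CPM in hopTum (edgeR adjusted p = 0.0136, and 0.0582 without hopTum replicate 1), and GstD6 had 8.17, 6.81 and 13.9 CPM in tuSz1 and 0.816, 2.54 and 0.965 CPM in hopTum (edgeR adjusted p = 0.0096). GstT2 was lower, with 14, 17.9 and 18.7 CPM in tuSz1, against 59.3, 83 and 51.8 CPM in hopTum (log2 fold change -1.94 with SE 0.33, edgeR adjusted p = 0.00363). GstO3 was the other lowered gene (edgeR adjusted p = 0.0163), and it missed the threshold without tuSz1 replicate 1 (0.064) or 2 (0.0586), which left 5 higher and 1 lower.

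Some hormone genes of growth and moulting also differed between the strains. Ilp2, an insulin-like peptide made by a small group of brain neurons, had 31.3, 30.5 and 40.9 CPM in tuSz1, against 5.1, 7.34 and 4.39 CPM in hopTum and 20.4, 14.1 and 26.7 CPM in w1118. It rose by 2.61 on the log2 scale (SE 0.36, adjusted p = 0.00125 with edgeR), and hopTum was the low strain. Akh, the adipokinetic hormone that mobilises stored fuel, had 7.41, 9 and 13.2 CPM in tuSz1, against 2.04, 1.51 and 2.89 CPM in hopTum (edgeR adjusted p = 0.0177, and 0.0574 and 0.0524 without hopTum replicates 1 and 2). Ilp5 had 8.64, 11.6 and 8.57 CPM in tuSz1 and 2.04, 4.99 and 2.11 CPM in hopTum (edgeR adjusted p = 0.0423), and missed the threshold without any library other than hopTum replicate 2 (up to 0.155). Ilp6, expressed mainly in the fat body, was at 100, 121 and 104 CPM in tuSz1 and 205, 208 and 241 CPM in hopTum, with no overlap, but was not called (adjusted p = 0.054 with edgeR). The 3 called genes were among 15 of insulin signalling, whose median log2 fold change of 0.03 equalled that of all genes. The number called higher was 1 without hopTum replicate 1 and 2 without tuSz1 replicate 2 or hopTum replicate 2. Without w1118 replicate 1 or 3 it was 2, with 1 called lower.

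Of 9 genes of ecdysone synthesis, spok, an enzyme gene of the prothoracic gland, was called. It had 29.4, 24.7 and 28.4 CPM in tuSz1, against 4.69, 6.77 and 5.09 CPM in hopTum and 13.1, 23.1 and 21.2 CPM in w1118 (log2 fold change 2.32 with SE 0.34, edgeR adjusted p = 0.00188). Of 13 tested genes that respond to ecdysone, 4 were called, all lower in tuSz1, and 5 lay wholly lower. Their median log2 fold change was -1.22, and in the 4 called genes w1118 was above both strains. The transcription factor gene br had 144, 79.7 and 95.6 CPM in tuSz1, against 262, 310 and 406 CPM in hopTum and 618, 627 and 898 CPM in w1118 (log2 fold change -1.61 with SE 0.32, edgeR adjusted p = 0.00867). The nuclear receptor gene Eip78C had 0.95, 1.05 and 0.952 CPM in tuSz1, against 3.57, 31.1 and 7.72 CPM in hopTum and 106, 60 and 104 CPM in w1118 (edgeR adjusted p = 0.00941, and 0.0575 without tuSz1 replicate 3). Eip75B, a second nuclear receptor, had 60, 34.9 and 72.4 CPM in tuSz1 and 106, 94.2 and 189 CPM in hopTum (edgeR adjusted p = 0.0416). It kept the call only without tuSz1 replicate 3 or hopTum replicate 2 (up to 0.148 otherwise). ImpE3 had 8.17, 11.7 and 9.05 CPM in tuSz1 and 23.1, 37.3 and 23 CPM in hopTum (edgeR adjusted p = 0.0214), and missed without tuSz1 replicate 1 or 3 or hopTum replicate 2 (up to 0.0768). Without tuSz1 replicate 1, 2 ecdysone response genes were called.

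Salivary gland genes showed the split within tuSz1. Of 10 glue genes tested, ng2 and ng3, which belong to an early set of gland genes, were called higher. ng3 had 2143, 2133 and 3844 CPM in tuSz1, against 192, 172 and 58.3 CPM in hopTum and 77.7 to 293 CPM in w1118 (log2 fold change 4.27 with SE 0.61, edgeR adjusted p = 0.00138). ng2 had 401, 688 and 1140 CPM in tuSz1, against 40, 48.2 and 16.8 CPM in hopTum (log2 fold change 4.41 with SE 0.64, edgeR adjusted p = 0.00212). In contrast to the ng genes, the glue protein gene Sgs3 had 15568, 12358 and 3.57 CPM in tuSz1, against 3447, 5022 and 2846 CPM in hopTum, and Sgs1 had 2561, 2890 and 0.238 CPM in tuSz1, against 454, 625 and 398 CPM in hopTum. Replicates 1 and 2 of tuSz1 thus lay above hopTum and replicate 3 far below it. Without tuSz1 replicate 3, 7 glue genes were called higher, with a median log2 fold change of 2.56 in place of 1.97. Of 6 Eig71E genes tested, edgeR and DESeq2 each called 0, and 1 had an unadjusted p under 0.05 with edgeR, lower in tuSz1.

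Cuticle protein genes were called in both directions, 13 higher and 3 lower in tuSz1 of 75 tested, with a median log2 fold change of 1.46. The most raised were Ccp84Ad, Ccp84Aa and Cpr65Av. Cpr65Av had 50.3, 97.3 and 33 CPM in tuSz1, against 1.94, 1.13 and 0 CPM in hopTum and 23.1, 17.5 and 12.1 CPM in w1118 (log2 fold change 5.89 with SE 0.88, edgeR adjusted p = 0.00287). Ccp84Ad had 9.21, 8.04 and 53.2 CPM in tuSz1, against 0.408, 0.376 and 0 CPM in hopTum (log2 fold change 6.46 with SE 1.22, edgeR adjusted p = 0.00962). Ccp84Aa had 6.36, 6.9 and 72.8 CPM in tuSz1 and 0.102, 1.13 and 0.0877 CPM in hopTum (edgeR adjusted p = 0.0388), and missed the threshold without tuSz1 replicate 2, hopTum replicate 1 or 3, or w1118 replicate 2 (up to 0.147). The Ccp84A genes were thus highest in tuSz1 replicate 3, whereas Cpr65Av was not. The lowered genes were Cpr72Ec, Cpr65Ec and Cpr49Ac, with log2 fold changes of -3.96, -1.66 and -1.62 (edgeR adjusted p = 0.0163, 0.0109 and 0.0163, and 0.055 for Cpr49Ac without tuSz1 replicate 2). The higher calls numbered 8 without tuSz1 replicate 3, with a median of 0.67, and 6 without hopTum replicate 1 or hopTum replicate 3.

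Chitin genes gave unstable counts. Of 17 tested, Cht7 and Idgf5 were called higher and Cht5 lower, but the number called higher was 0 without tuSz1 replicate 2 or 3, hopTum replicate 1 or 3, or w1118 replicate 2, 1 without tuSz1 replicate 1 or w1118 replicate 1 or 3, and 6 without hopTum replicate 2. Cht5 missed the threshold without tuSz1 replicate 1 or hopTum replicate 2 (edgeR adjusted p of 0.0654 and 0.0681).

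Odorant-binding proteins are small carriers, some of them made outside the sense organs. Obp56a had 173, 305 and 249 CPM in tuSz1, against 37.3, 81.1 and 28.1 CPM in hopTum (log2 fold change 2.31 with SE 0.38, edgeR adjusted p = 0.00322). Obp56b, its neighbour on 2R, had 17.5, 24.6 and 18 CPM in tuSz1, against 2.04, 5.17 and 4.91 CPM in hopTum (log2 fold change 2.30 with SE 0.42, edgeR adjusted p = 0.00555). The third call among 15 tested, Obp56d, was lower at about 1 CPM or less in both strains, and missed the threshold without any 1 of the 9 libraries (edgeR adjusted p of up to 0.17). Without hopTum replicate 2, 4 of these genes were called higher.

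Muscle genes were mixed. Summed over 19 genes they came to 37458, 51919 and 123775 CPM in tuSz1, against 20197, 32298 and 4006 CPM in hopTum, so tuSz1 replicate 3 was the highest and hopTum replicate 3 the lowest. Zasp52, which encodes a protein of the muscle Z-disc that also sits at integrin attachments, had 66.9, 72.6 and 50.7 CPM in tuSz1, against 358, 302 and 370 CPM in hopTum and 40.3, 41.6 and 35.5 CPM in w1118. It fell by 2.44 on the log2 scale (SE 0.24, adjusted p = 1.57e-04 with edgeR), whereas the median of the 15 tested muscle genes was 1.00. TpnC73F, a troponin C gene, was also called lower (edgeR adjusted p = 0.0281), but missed the threshold without any tuSz1 library or hopTum replicate 1 or 3 (up to 0.113). The muscle genes called higher and lower numbered 1 and 1 without tuSz1 replicate 1 or 2, 0 and 1 without hopTum replicate 1 or 3, and 1 and 2 without hopTum replicate 2 or w1118 replicate 1.

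Storage protein genes of the fat body were abundant in tuSz1 and variable in both strains. Lsp1alpha, a larval serum protein gene, had 27099, 41417 and 70372 CPM in tuSz1, against 2086, 20146 and 724 CPM in hopTum, with no overlap, but was not called (log2 fold change 2.60 with SE 1.02, edgeR adjusted p = 0.153). The lipid carrier gene apolpp was the single call among 5 tested, with 74.7, 61.2 and 84 CPM in tuSz1 and 23.5, 45.2 and 27 CPM in hopTum (edgeR adjusted p = 0.0269). It missed without tuSz1 replicate 1 or 3 or hopTum replicate 1 or 3 (up to 0.126), and without hopTum replicate 2 there were 2 calls. The tryptophan oxygenase gene v, of the brown eye pigment pathway and also active in the fat body, had 62.9, 94 and 161 CPM in tuSz1, against 1.02, 3.57 and 1.14 CPM in hopTum and 33.8, 19.3 and 31.6 CPM in w1118. It rose by 5.78 on the log2 scale (SE 0.57, adjusted p = 1.54e-04 with edgeR), and the hopTum libraries were the lowest of the 3 genotypes. It was the single call among 10 pigment genes, where a second gene was called higher without hopTum replicate 2 or w1118 replicate 1 and 1 was called lower without hopTum replicate 1 or 2.

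The protein-coding genes of the mitochondrial genome had log2 fold changes above 0 in all 13 cases, with a median of 1.28. They summed to 74436, 65019 and 119444 CPM in tuSz1, against 29035, 52156 and 33991 CPM in hopTum and 52720 to 59729 CPM in w1118. These sums are relative to the scaling used and are not shares of all counts. Of the 13, 6 were called, all higher, and 10 did not overlap. These genes share long precursor transcripts and are not independent. ND3, a subunit gene of respiratory complex I (MT:5608-5961), had 1019, 572 and 1449 CPM in tuSz1, against 96.4, 269 and 151 CPM in hopTum (log2 fold change 2.56 with SE 0.52, edgeR adjusted p = 0.00985). ND3 was the call that stayed without tuSz1 replicate 1, tuSz1 replicate 3 or hopTum replicate 1, each of which left 1 call, and without hopTum replicate 3 there were 3. The respiratory chain genes of the nucleus had 1 call in 37 tested, ND-B15, and a median log2 fold change of 0.59. ND-B15 missed the threshold without tuSz1 replicate 3 or hopTum replicate 1 or 3 (edgeR adjusted p of up to 0.111), and 2 such genes were called without tuSz1 replicate 1 or hopTum replicate 2.

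Housekeeping lists held few calls. The median log2 fold change was -0.28 for 54 cytosolic ribosomal protein genes, 0.08 for 57 mitochondrial ribosomal protein genes and -0.56 for 29 proteasome subunit genes. Of the proteasome genes, 16 lay wholly lower in tuSz1 (15.5% of all genes did), but Rpt4 alone was called (470, 437 and 414 CPM in tuSz1, 820, 966 and 742 CPM in hopTum), and it missed the threshold without any tuSz1 or hopTum library or w1118 replicate 2 (edgeR adjusted p of up to 0.132). A proteasome gene was called higher without tuSz1 replicate 3 or hopTum replicate 3. With total-count scaling 10 proteasome and 10 cytosolic ribosomal genes were called lower. RpS28b was the single call among cytosolic ribosomal genes, higher in tuSz1, and was lost without hopTum replicate 1 (edgeR adjusted p = 0.0581) or 3 (0.0516); without tuSz1 replicate 3, 2 such genes were called lower. With edgeR, 0 of the mitochondrial ribosomal, 13 heat shock, 17 replication and 10 neuron genes were called. At an unadjusted p under 0.05 the numbers were 3, 1, 0 and 3, and DESeq2 called 0, 1, 0 and 1. Of 16 spermatocyte genes edgeR called 0, with 2 at an unadjusted p under 0.05 and 1 by DESeq2, and it called 2 higher without tuSz1 replicate 3 or hopTum replicate 3. Without hopTum replicate 2, edgeR called 1 heat shock and 1 neuron gene, both lower. Of 2 tested genes among the dosage compensation RNAs and yolk proteins, which differ between the sexes, edgeR called 0, with 1 at an unadjusted p under 0.05 and 1 by DESeq2, and edgeR called 1 higher without tuSz1 replicate 2 or 3.

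The trehalose transporter gene Tret1-1, which takes up the main blood sugar of the fly, had 241, 313 and 385 CPM in tuSz1, against 1242, 789 and 1104 CPM in hopTum and 70.4, 60.8 and 65.9 CPM in w1118. It fell by 1.74 on the log2 scale (SE 0.29, adjusted p = 0.00363 with edgeR), with the 3 genotypes in the same order as the lamellocyte markers. Ald1, an aldolase of glycolysis, was higher (74.2, 95.9 and 137 CPM in tuSz1, 34.1, 49 and 21.8 CPM in hopTum, edgeR adjusted p = 0.034), and missed without tuSz1 replicate 2 or 3 or hopTum replicate 1 or 3 (up to 0.115). These were the calls among 15 genes of sugar metabolism, where a second gene was called higher without tuSz1 replicate 1. Of 20 vacuolar proton pump genes, Vha100-4 (edgeR adjusted p = 0.0103) and Vha100-2 (0.0215) were called higher and Vha13 lower. Vha100-4 kept its call without any 1 library, while Vha100-2 missed without tuSz1 replicate 3 or any hopTum library (up to 0.0651) and Vha13 missed without 7 of the 9 libraries, all but tuSz1 replicate 3 and hopTum replicate 3 (up to 0.157). Of 14 serpins, Spn43Aa was called lower (39.5, 25.2 and 5 CPM in tuSz1, 131, 115 and 177 CPM in hopTum, edgeR adjusted p = 0.0153, and 0.0566 without tuSz1 replicate 2). Spn43Ab was called higher (edgeR adjusted p = 0.0309), but missed without tuSz1 replicate 3 or any hopTum library (up to 0.101). A second serpin was called lower without tuSz1 replicate 3 or w1118 replicate 3.

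**Figure D5:**
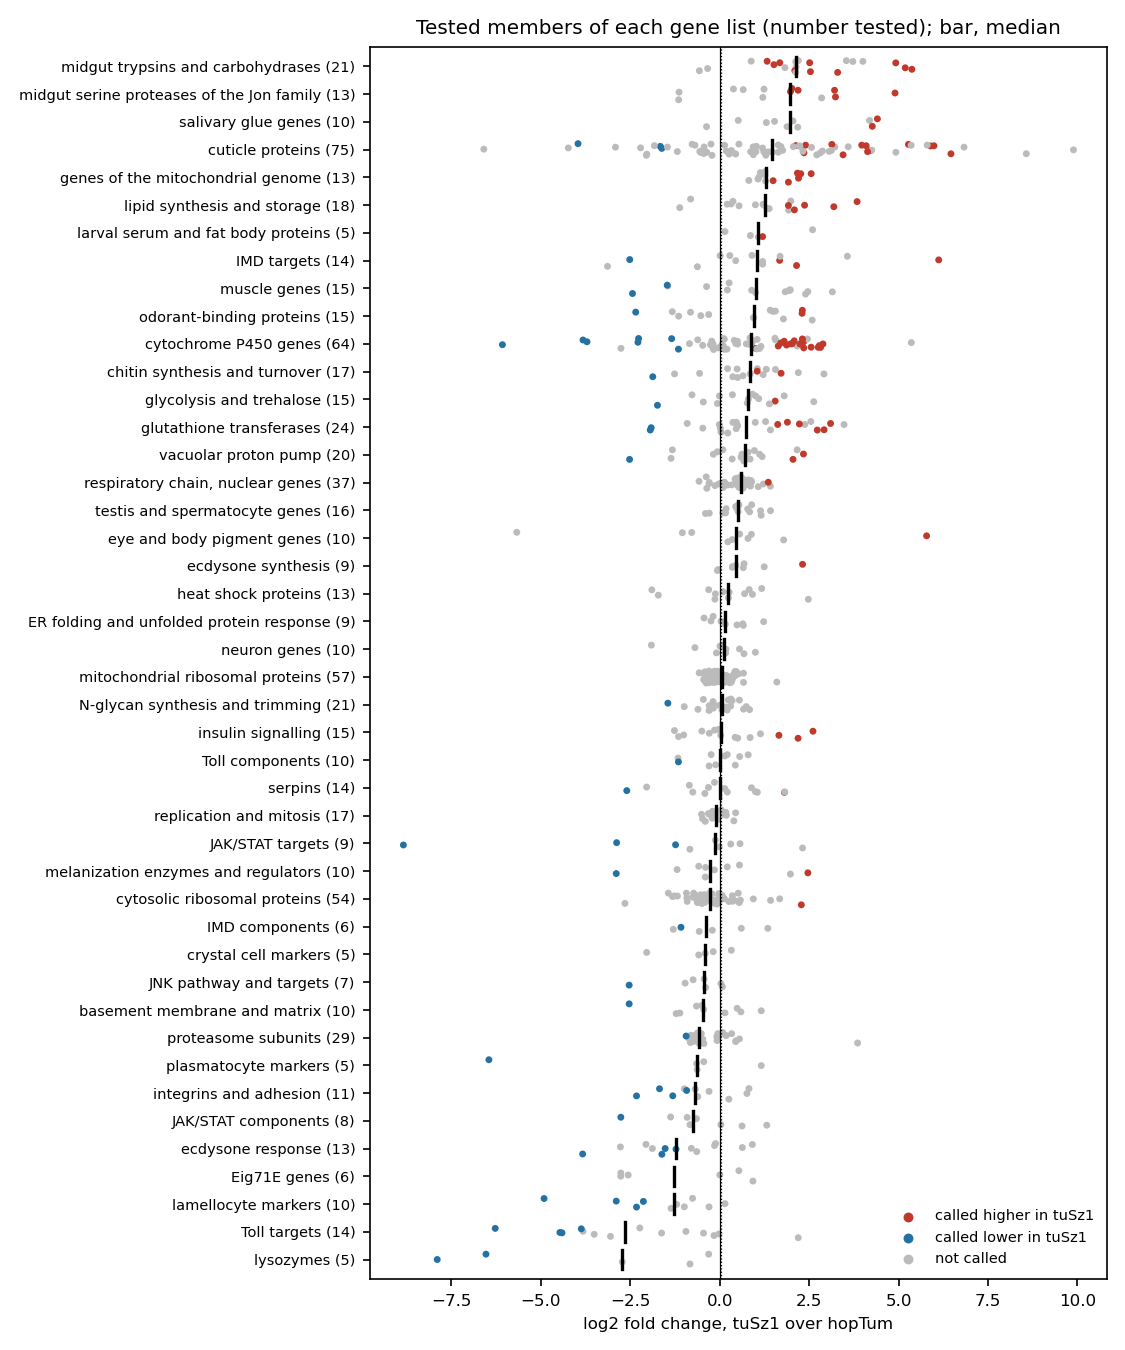
Log2 fold change of tuSz1 over hopTum for every tested gene of each list, with 1 point per gene and a bar at the list's median; the dotted line is the median of all tested genes. Midgut enzyme and mitochondrial genome genes lie mostly to the higher side, with medians of 2.14, 1.98 and 1.28, and Toll targets, lysozymes and lamellocyte markers to the lower side, with medians of -2.64, -2.72 and -1.28.

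The 15 most raised and 15 most lowered genes were drawn from non-overlapping called genes with at least 5 CPM in the higher strain. At the upper end they were largely uncharacterised genes. Those at the lower end were largely immune genes, lysozyme genes and non-coding RNAs. CG32071 (3L:11103421-11103873) had 946, 1400 and 2178 CPM in tuSz1, against 1.84, 6.77 and 0.702 CPM in hopTum (log2 fold change 8.92 with SE 0.84, edgeR adjusted p = 1.64e-04). CG12522 (3L:11108235-11108732), a near neighbour on the same arm, had 111, 125 and 328 CPM in tuSz1, against 1.22, 0.188 and 1.23 CPM in hopTum. CG6296 (3R:27003236-27005469), a lipase-like gene, had 1575, 1581 and 2987 CPM in tuSz1, against 21.8, 13.1 and 5.26 CPM in hopTum and 436 to 687 CPM in w1118 (log2 fold change 7.26 with SE 0.61, edgeR adjusted p = 6.86e-05). In each of these genes the lowest tuSz1 library was many times above the highest hopTum library.

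A few raised genes were listed at 0 in every hopTum library. The antisense RNA asRNA:CR45600 (3R:15136985-15140121) had 7.41, 10.4 and 10.7 CPM in tuSz1 and 10.9, 19.4 and 18.4 CPM in w1118, and was at least 33.5-fold higher in tuSz1 than in hopTum. The strand setting of the counts is not given, so its reads cannot be told apart from those of an overlapping gene. CG13946 and CG34217 were at least 19.3-fold and 18.2-fold higher and were at 0 in w1118 as well. The other raised genes were CG34273, CG15741, CG42821, CG42562, CG10553, CG13170 and CG13068, with Ccp84Ad and AttA, and all of these had log2 fold changes between 6.12 and 7.26. CG10553 and CG13068 were lost without hopTum replicate 1 (edgeR adjusted p of 0.0789 and 0.0921) or 3 (0.0707 and 0.0757), and CG13068 also without tuSz1 replicate 3 (0.0702) or hopTum replicate 2 (0.0591).

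At the lower end, besides TotE, LysD, LysE, Sr-CI, BomT2 and Cyp28a5, stood the tetraspanin gene Tsp3A, which had 0.19, 0 and 0 CPM in tuSz1, against 11, 28.1 and 10.8 CPM in hopTum, at least 55.2-fold lower. Ttc26, a gene of ciliary transport (3R:15774416-15777640), had 0.19, 0.349 and 1.19 CPM in tuSz1, against 43.8, 38.5 and 47.4 CPM in hopTum (log2 fold change -6.27 with SE 0.56, edgeR adjusted p = 9.57e-05). The sodium channel gene ppk13 had 0.57, 2.53 and 2.38 CPM in tuSz1, against 219, 50.7 and 168 CPM in hopTum and 25.5 to 46.1 CPM in w1118. In Ttc26 and ppk13 the strains were separated by more than an order of magnitude. lncRNA:CR40469 (X:122493-122706) had 11.5, 9.52 and 9.76 CPM in tuSz1, against 709, 1608 and 940 CPM in hopTum (log2 fold change -6.72 with SE 0.43, edgeR adjusted p = 1.79e-05), and lncRNA:CR44300, lncRNA:CR45471 and lncRNA:CR44133 were the other lowered RNAs of this kind. Drsl2, a relative of drosomycin, had 4.37, 10.4 and 0.714 CPM in tuSz1, against 348, 337 and 215 CPM in hopTum and 193, 194 and 501 CPM in w1118. The neighbouring Drsl3, which falls outside the rule for named genes and was added after its values were seen, went the other way, with 12.3, 20.7 and 15.6 CPM in tuSz1, against 1.43, 3.67 and 2.02 CPM in hopTum (log2 fold change 2.76 with SE 0.53, edgeR adjusted p = 0.00774). These genes are similar in sequence, and their reads may not be fully separated. Drsl4, the next gene, had 0.095, 0 and 0 CPM in tuSz1 and 4.29, 44.8 and 0.263 CPM in hopTum, where replicate 3 was itself within the floor. Drsl4 missed the threshold without any tuSz1 library, hopTum replicate 1 or w1118 replicate 2 (edgeR adjusted p of up to 0.141).

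Set against the control, w1118 was nearer to hopTum in 340 of the 503 genes raised in tuSz1 (67.6%), on the scale of log2 of the mean CPM plus 0.5. It was nearer to tuSz1 in 253 of the 377 lowered genes (67.1%). However, w1118 lay below both strains in 135 of the raised and 173 of the lowered genes. There the strain with the lower value was the nearer one by construction. It lay above both strains in 44 of the raised and 70 of the lowered genes. Over all tested genes w1118 was nearer to tuSz1 in 54% and to hopTum in 46%.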

How the data were processed

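Total RNA from whole larvae of 3 genotypes, with 3 libraries each, was sequenced. The deposited values are raw read counts, listed per RefSeq transcript in 1 file per library with 34111 entries. The submitters' processing notes name FastQC 0.11.8, HISAT2 2.1.0, featureCounts 1.6.3 and the build dm6, without their roles, and the strand setting is not given in the sources used here. Entries were matched to a RefSeq gene table of the same assembly, 33766 with their version and 146 without it, while 0.421% of counts fell on 199 unmatched entries. Summing was by gene symbol.

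The test was edgeR 4.0.16 in R 4.3.3: TMM factors (0.579 to 1.37), the default filter on low counts by genotype, and a robust quasi-likelihood fit of all 9 libraries with 1 coefficient per genotype. P-values were adjusted by Benjamini-Hochberg over the 9106 tested genes, with a threshold of 0.05. Each SE is the size of the log2 fold change over the square root of its F statistic. The 3 libraries of a genotype are labelled as biological replicates, and 3 against 3 allow an exact two-sided p of no less than 0.1 for a single value, so none is given. Where every library of 1 genotype held 3 counts or fewer, the fold is a lower bound computed with 3 counts per library. In a simulation of this comparison, with 7581 genes tested and 200 of them altered, 125 of 133 calls were true. The share found was 8% at 2-fold, 58% at 4-fold and 92% at 8-fold. Only genes with a mean count over 20 were simulated, fewer were altered than the 880 called, and no library was made to stand apart. The rates in the real data may therefore differ.

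Named genes were the 15 most raised and 15 most lowered called genes with at least 5 CPM in the higher genotype and no overlap, hop, GCS1 and w, and the called members of each list (the 3 at each end where more than 6 were called). Members that did not pass are given as values. The gene lists and members were chosen with earlier results of these data known. Alternatives were DESeq2 1.42.0 size factors and Wald test, scaling by total counts or without the 50 most abundant genes, no filter, a mean count of at least 50, a fit of the 6 libraries alone, a block for the replicate number, genes with 1 transcript, an added minimum log2 fold change of 1 in size, and each library left out in turn. Leaving out tuSz1 replicate 3 and hopTum replicate 2 together was chosen after seeing the data. Plots used matplotlib 3.10.9 and tables pandas 2.3.3 and numpy 2.4.6, under Python 3.11.15.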

Additional observations from a re-analysis of the deposited data

How the results depend on the processing

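The number of genes called, 880 (503 higher and 377 lower in tuSz1), was between 507 and 891 when 1 library was left out, 1408 with total-count scaling (389 higher and 1019 lower), 504 with the replicate number as a block and 1341 with the DESeq2 Wald test. It stayed within 1.5 times of 880 with DESeq2 size factors (836), the 50 most counted genes left out of the scaling (861), no filter (852), a mean count of at least 50 (771), the 6 libraries compared (723), genes with 1 transcript (636), a log2 fold change of 1 or more in size (828), and without tuSz1 replicate 3 and hopTum replicate 2 (786, of which 574 were among the 880). No gene called in both was called in opposite directions under any of these. The cause of each change was not tested, beyond the smaller number of libraries or genes that some alternatives have by construction.

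The replicate numbers come from the titles. Deviations from the genotype means of same-numbered tuSz1 and hopTum libraries correlated at -0.112, -0.0645 and -0.351. Deviations within a genotype are not independent of one another, so these correlations cannot decide whether same-numbered libraries share more than a number. With the number as a replicate block 504 genes were called, 499 of them among the 880, and 69 of 217 called list and named genes missed the threshold. Of these 217 genes, 107 kept the call under every alternative and none reversed, with 653 losses in all, and 62 missed the threshold without tuSz1 replicate 3. In the simulation 8% of genes changed 2-fold were recovered, so a missed call says little about small differences.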

Other observations

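Further genes and families were looked at after their values were seen, so their counts carry no weight beyond description. Of 8 tubulin genes tested, 1 was called, lower in tuSz1, and 2 were called lower without w1118 replicate 1 or 3. alphaTub85E, an alpha tubulin gene (3R), had 3165, 3178 and 2625 CPM in tuSz1, against 18369, 23220 and 13106 CPM in hopTum and 43.8, 21.3 and 10.5 CPM in w1118 (log2 fold change -2.61 with SE 0.50, edgeR adjusted p = 0.00733). Of 4 actin genes tested, 1 was called, lower in tuSz1, and 3 of 5 tested were called lower without tuSz1 replicate 3. The single call was Act42A, which had 5366, 5521 and 4759 CPM in tuSz1, against 20586, 17356 and 15268 CPM in hopTum (log2 fold change -1.77 with SE 0.36, edgeR adjusted p = 0.0101). Act57B, an actin gene that was not called, had 21539, 29665 and 78709 CPM in tuSz1 and 13203, 18176 and 2536 CPM in hopTum. mthl4, a receptor gene of the Methuselah family, had 353, 393 and 280 CPM in tuSz1, against 3162, 2943 and 2732 CPM in hopTum (log2 fold change -3.11 with SE 0.30, edgeR adjusted p = 1.49e-04). Of 8 scavenger and Nimrod receptor genes, 3 were called, all lower in tuSz1. Among them, Sr-CIV had 49.6, 42.5 and 35.5 CPM in tuSz1, against 869, 858 and 783 CPM in hopTum (log2 fold change -4.30 with SE 0.37, edgeR adjusted p = 7.77e-05). Of 22 tetraspanin genes, 3 were called higher and 2 lower, and the higher ones numbered 1 without hopTum replicate 1 or 3.

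Of 10 mucin genes tested, 3 were called, all higher in tuSz1, and 1 was also called lower without hopTum replicate 1. Muc11A, Muc68D and Muc68E had log2 fold changes of -0.61, -2.67 and -1.74 and were not called. Among the called genes, Muc68Ca had 2082, 1553 and 2910 CPM in tuSz1, against 275, 184 and 253 CPM in hopTum (log2 fold change 3.20 with SE 0.34, edgeR adjusted p = 2.52e-04). Peritrophin-15a, of the membrane that lines the gut, had 5111, 7557 and 7484 CPM in tuSz1, against 1661, 1316 and 651 CPM in hopTum (log2 fold change 2.47 with SE 0.40, edgeR adjusted p = 0.0029). Of 6 sugar taste receptor genes of the Gr64 cluster, 4 were listed at 0 in all libraries, and the 2 tested were both called higher. Of these, Gr64a had 21.9, 19.3 and 14.6 CPM in tuSz1, against 0, 0.564 and 0.351 CPM in hopTum (log2 fold change 5.86 with SE 0.71, edgeR adjusted p = 5.30e-04). Listericin, an antibacterial protein gene known to depend on JAK/STAT, had 128, 187 and 44.4 CPM in tuSz1, against 13.8, 19.2 and 8.51 CPM in hopTum and 491, 355 and 647 CPM in w1118 (log2 fold change 3.12 with SE 0.50, edgeR adjusted p = 0.00298). CG44475 had 887, 1759 and 1862 CPM in tuSz1, against 127, 120 and 169 CPM in hopTum (log2 fold change 3.44 with SE 0.36, edgeR adjusted p = 2.01e-04).

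By chromosome, 6.02% of 1413 tested genes on the X were called, against 8.65% on 2L, 10.8% on 2R, 11% on 3L and 10.5% on 3R. No test of this difference was run.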
